A study of Homo sapiens with 12 samples.

Results

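The RNA of 2 human melanoma cell lines, COLO858 and MMACSF, was compared in the libraries that received only the solvent DMSO, which is the state of the cells without drug. All 4 such libraries of the series were used, 2 replicates of each line, out of 12 libraries in all. The other 8 libraries were from the same lines after 24 h or 48 h in 0.2 μM vemurafenib, an inhibitor of mutant BRAF kinase, and they serve here only to show whether a difference between the lines was also present in other libraries. Both lines carry a BRAF mutation and were described as sensitive to vemurafenib. COLO858 was grown in RPMI 1640 medium and MMACSF in DMEM/F12, each with fetal serum, and COLO858 was seeded less densely. The libraries of each line were in a table of their own, and the time in DMSO was not stated in the labels. Line, table, medium and density cannot be told apart.

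Genes were joined between the 2 tables by symbol. Of the 23273 symbols, 12442 reached a mean of at least 1 FPKM (fragments per kilobase of transcript, relative to the fragments mapped in the library) in either line and were not small RNA genes. The tables had been scaled separately, so each library was divided by the median ratio of its values to the average library, and the factors lay between 0.935 and 1.09. The difference of a gene is the mean of log2(rescaled FPKM + 1) in COLO858 minus that in MMACSF, with n = 2 in each line, so a positive value is higher in COLO858. No test was made between the separately scaled tables. A difference is called large where it was at least 2 (4-fold) and both libraries of one line lay above both libraries of the other. Values of single libraries are the FPKM as deposited, replicate 1 before replicate 2, and where pairs of values are set against each other COLO858 comes first. Adding 1 FPKM makes the differences of low genes smaller than their ratios.

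Melanoma arises from melanocytes, the pigment cells of the skin, and cultured melanoma lines differ in how much of the pigment cell program they keep. In that program the transcription factors SOX10 and PAX3 act on MITF, the master regulator of melanocytes, and MITF acts on the enzymes, structural proteins and transporters of the melanosome, the organelle in which melanin is made. Lines with little of the program often express receptor kinases such as AXL, extracellular matrix genes and genes of early neural crest cells.

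Most genes differed little between the lines. Of the 12442 genes, 9197 (73.9%) differed by less than 2-fold, and the median size of the difference was 0.56 on the log2 scale. Large differences were found for 397 genes higher in COLO858 (3.19% of the genes compared) and for 496 genes higher in MMACSF (3.99%). Non-overlap of the libraries alone was no rare event, since it held for 74.1% of all genes. The median gap between the replicates of a line was 0.25 in COLO858 and 0.22 in MMACSF, and 855 of the 893 large differences were over 3 times the larger replicate gap of the gene. That count follows in part from the rule, which picked differences of at least 2. Of the genes higher in COLO858, 245 were under 1 FPKM in both MMACSF libraries and 68 were listed at 0 there. Of those higher in MMACSF, 209 were under 1 FPKM in both COLO858 libraries and 37 were listed at 0. An exact 0 in these tables can be a failed estimate, because genes that every cell uses, such as RPS18 and TUBB, were listed at 0 in all 12 libraries. No difference is therefore given below for a gene listed at 0 in both libraries of a line.

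**Figure D1:**
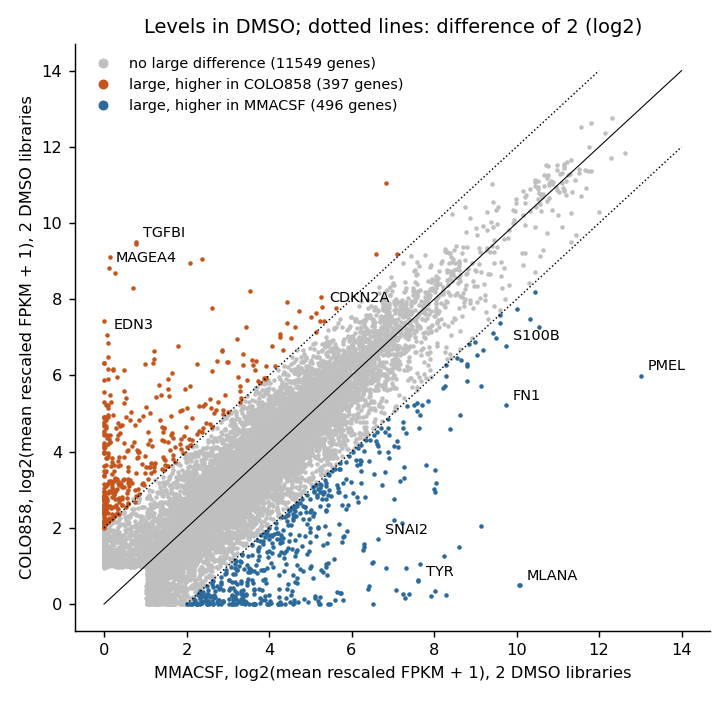
Mean level of each of the 12442 genes in MMACSF (horizontal) and COLO858 (vertical), as log2(mean rescaled FPKM + 1) over 2 DMSO libraries each. Orange points are the 397 genes with a large difference that were higher in COLO858, blue points the 496 higher in MMACSF, grey points all others, and dotted lines mark a difference of 2. PMEL, MLANA and TYR lie far below the diagonal, and TGFBI and MAGEA4 far above it.

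Markers of melanoma were present in both lines, but not all of them. SOX10 was at 227 and 159.7 FPKM in COLO858 and 283 and 208 in MMACSF, so its libraries overlapped. PRAME, an antigen common in melanoma, was at 498 and 516 FPKM in COLO858 and 349 and 358 in MMACSF. MLANA and TYR, the markers most used to recognise melanocytic cells, were under 1 FPKM in both COLO858 libraries. Of the markers of other cells, all 10 endothelial genes were under 1 FPKM in the 4 libraries, as were PTPRC, CD3E and MS4A1 of leukocytes and KRT5, KRT14 and EPCAM of epithelia. The summed level of 10 leukocyte markers was 13.6 to 17.1 FPKM in COLO858 and 83.3 to 89.7 in MMACSF, and most of it came from CD68, a lysosomal protein. The summed level of 10 fibroblast markers was 24.6 to 33.1 FPKM in COLO858 and 58.1 to 79.3 in MMACSF, mostly from POSTN in the first and LUM in the second. The 10 keratinocyte and epithelial markers summed to 70.9 to 81.1 FPKM in COLO858 and 66.2 to 67.1 in MMACSF. Most of this sum came from KRT18 in COLO858, and from KRT18 and CDH1 in MMACSF. KRT18, KRT10 and KRT8 were above 1 FPKM in all 4 libraries, so epithelial markers were not absent as a group. In bulk libraries, fewer cells that express a gene and less RNA of it per cell cannot be told apart.

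The pigment program was the gene list with the lowest median difference, that is, the strongest lean towards MMACSF. Of 25 pigment and melanosome genes compared, 17 had a large difference and all 17 were higher in MMACSF, beside 3.99% of all genes in that direction. The median difference of the 25 genes was -4.36, beside 0.03 over all genes. The other 8 included MITF and DCT, which were below the limit, and TYRP1, which overlapped. MITF itself was at 56.2 and 79.2 FPKM in COLO858 and 174 and 244 in MMACSF, a difference of -1.71 that was not large although the libraries did not overlap. TFAP2A, a transcription factor of neural crest and pigment cells, was at 8.06 and 8.67 FPKM in COLO858 and 49.9 and 55.03 in MMACSF (difference -2.61, large).

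Of the proteins of the melanosome, PMEL, MLANA and GPR143 were among the 15 largest differences towards MMACSF. PMEL, which forms the fibrils on which melanin is laid down, was at 65.9 and 63.3 FPKM in COLO858 and 7947 and 7940.1 in MMACSF, a difference of -7.02. It was thus still expressed in COLO858. MLANA (melan-A) was at 0.438 and 0.425 FPKM in COLO858 and 962 and 1126 in MMACSF, with the largest difference of any gene towards MMACSF (-9.57). GPR143, the receptor of the melanosome membrane that is mutated in ocular albinism, was at 0.234 and 0.161 FPKM in COLO858 and 158 and 132 in MMACSF (difference -6.98).

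The 3 enzymes of the melanin pathway did not behave alike. TYR, tyrosinase, which makes the first step of melanin synthesis, was at 0.385 and 0.690 FPKM in COLO858 and 178 and 201 in MMACSF (difference -7.03). DCT, dopachrome tautomerase, was well expressed in both lines, at 252 and 283 against 758 and 869 FPKM (difference -1.70, not large). TYRP1 was low in both, at 2.04 and 3.48 FPKM in COLO858 and 1.48 and 2.44 in MMACSF, with overlapping libraries. COLO858 therefore had substantial RNA of only one of these enzymes, and MMACSF of TYR and DCT. DCT and TYRP1 were outside the rule by which genes were named and were added after their values were seen, as was SOX10.

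Transporters and carriers of the melanosome followed TYR. SLC45A2, a transporter that sets melanosome pH, was at 1.97 and 1.83 FPKM in COLO858 and 353 and 404 in MMACSF (difference -7.11). SLC24A5, a potassium-dependent sodium and calcium exchanger of pigment cells, was at 0.265 and 0.170 against 136 and 186 FPKM (difference -7.10). TRPM1, a cation channel first found through its level in melanocytic cells, was at 0.0758 and 0.306 against 290.4 and 317 FPKM (difference -8.07). In all 3 genes the COLO858 libraries were under 2 FPKM and the MMACSF libraries above 100 FPKM. ABCB5, an ABC transporter of pigment cells, was at 0.332 and 0.318 FPKM in COLO858 and 66.95 and 94.4 in MMACSF.

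For 13 of the 17 pigment genes with a large difference, RefSeq promoter windows were at hand (250 bases before to 50 bases after a transcript start, build GRCh38.p14). The letters CATGTG, on either strand, are an E-box of the kind to which MITF binds. They stood in the 250 upstream bases of 7 of the 19 windows of these genes (36.8%), from 6 genes, beside 9.42% of all 35116 windows and 6.30% of the 13144 windows of genes compared here. Among windows of all genes higher in MMACSF the share was 10.95%, and among those of genes higher in COLO858 7.78%. The 6 genes were TYR, OCA2, TRPM1, SLC24A5, MC1R and GPR143, and the windows of the other 7 genes held no match. A match is a description of the letters, not evidence of binding. The 250 upstream bases of 4 of these genes are printed, 5′ to 3′ on the strand of the gene, with the matches in capitals. RNA of TYR, SLC24A5 and GPR143 was near 0 in COLO858 and abundant in MMACSF (above), and no level is given for OCA2. The 4 are a choice among the 6 genes with a match.
TYR (chr11:89177625-89177874, plus strand): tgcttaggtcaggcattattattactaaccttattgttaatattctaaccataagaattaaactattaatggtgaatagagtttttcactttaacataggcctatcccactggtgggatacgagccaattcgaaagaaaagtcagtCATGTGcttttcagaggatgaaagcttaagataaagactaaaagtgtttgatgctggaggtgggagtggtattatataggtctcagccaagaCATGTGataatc
SLC24A5 (chr15:48120740-48120989, plus strand): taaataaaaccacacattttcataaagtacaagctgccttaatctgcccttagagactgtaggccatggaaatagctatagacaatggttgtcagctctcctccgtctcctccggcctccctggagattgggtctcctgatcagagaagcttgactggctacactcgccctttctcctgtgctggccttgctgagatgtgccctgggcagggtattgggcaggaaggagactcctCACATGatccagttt
GPR143 (chrX:9765848-9766097, minus strand): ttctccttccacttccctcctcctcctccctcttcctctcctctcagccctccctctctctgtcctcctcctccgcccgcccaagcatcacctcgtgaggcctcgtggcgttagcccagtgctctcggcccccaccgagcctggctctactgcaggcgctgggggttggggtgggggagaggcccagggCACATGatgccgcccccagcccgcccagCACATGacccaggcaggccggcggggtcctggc
OCA2 (chr15:28099316-28099565, minus strand): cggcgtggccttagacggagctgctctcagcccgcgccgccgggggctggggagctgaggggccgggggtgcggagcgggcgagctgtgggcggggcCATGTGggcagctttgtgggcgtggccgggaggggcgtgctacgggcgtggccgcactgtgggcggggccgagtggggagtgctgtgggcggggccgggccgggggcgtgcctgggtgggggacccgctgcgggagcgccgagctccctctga
The matches begin 104 and 12 bases before the start of TYR, 15 before that of SLC24A5, 61 and 33 before that of GPR143 and 153 before that of OCA2.

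**Figure D2:**
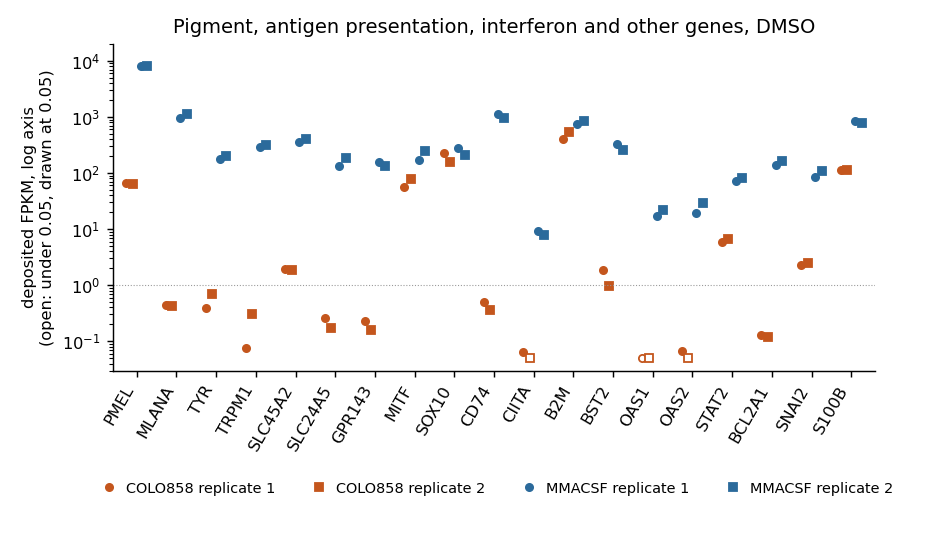
Deposited FPKM (log axis) of 19 genes in the 4 DMSO libraries, with COLO858 in orange and MMACSF in blue, replicate 1 as circles and replicate 2 as squares. Open symbols are values under 0.05 FPKM, drawn at 0.05. The pigment genes PMEL to GPR143, CD74, OAS1, BCL2A1 and SNAI2 are far apart between the lines, whereas MITF is closer, and SOX10 overlaps.

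Among antigen presentation genes, CD74 and CIITA were far higher in MMACSF, and the other readable genes differed less. MHC class II molecules show peptides to T cells, mostly on immune cells, and CIITA is the transcription factor that turns their genes on. CD74, the invariant chain that escorts class II molecules, was at 0.5002 and 0.364 FPKM in COLO858 and 1124 and 941 in MMACSF (difference -9.55). CIITA was at 0.0654 and 0.0180 against 9.35 and 7.89 FPKM (difference -3.25), and it was outside the rule by which genes were named. Of 14 genes of the list that were compared, 7 were called higher in MMACSF, beside 3.99% of all genes, and 0 higher in COLO858. The called genes other than CD74 and CIITA were HLA genes listed at 0 in both COLO858 libraries. ERAP2, a peptidase that trims peptides for class I molecules, went the other way, with 5.002 and 7.22 FPKM in COLO858 and 0.766 and 0.799 in MMACSF (difference 1.91, not large; added after its values were seen).

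The genes of the MHC region itself could not be weighed. Of 184 protein-coding symbols placed at 28 to 34 Mb of chromosome 6, 147 (79.9%) were listed at 0 in all 12 libraries, beside 12.1% of 18363 such symbols elsewhere. The class II genes HLA-DRB5, HLA-DRB1 and HLA-DQB1 were listed at 0 in both COLO858 libraries. In MMACSF they stood at 92.9 and 82.8, 43.5 and 37.7 and 18.9 and 15.3 FPKM, and HLA-DRB1 and HLA-DRB5 are close relatives that share reads. CD74, CIITA and B2M, the light chain of class I molecules, lie outside the region. B2M was at 408 and 534 FPKM in COLO858 and 735 and 861 in MMACSF (difference -0.87, not large). Without the 6 genes at 0 in a line, the median difference of the list was -0.77 over 8 genes, beside -2.30 over all 14.

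Genes induced by interferons, the signalling proteins of antiviral defence, leaned the same way. Of 34 compared, 10 were called higher in MMACSF, beside 3.99% of all genes, and 0 higher in COLO858. A difference below 0 was found for 31 of the 34, and the median was -1.35, beside 0.03 over all genes. BST2, tetherin, which holds budding viruses at the cell surface, was at 1.88 and 0.981 FPKM in COLO858 and 328 and 252 in MMACSF (difference -6.99). OAS2, a sensor of double-stranded RNA, was at 0.0678 and 0.0241 against 19.2 and 29.7 FPKM (difference -4.62), and its relative OAS1 was listed at 0 in both COLO858 libraries and at 17.1 and 21.9 FPKM in MMACSF. MX1, a GTPase that blocks viruses, was at 0.494 and 0.478 against 22.5 and 25.3 FPKM (difference -4.13). The lean did not cover every gene of the group, since ISG15, a ubiquitin-like protein and an interferon gene, was at 21.2 and 19.4 FPKM in COLO858 and 8.04 and 6.86 in MMACSF (difference 1.25; added after its values were seen). BST2 had the widest gap of the 5 genes. Non-overlap of the libraries held by rule for the called ones. It also held for ISG15, as for 74.1% of all genes.

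The 15 largest differences towards MMACSF also held PYCARD and BCL2A1. PYCARD, the adaptor protein of inflammasomes, was at 0.566 and 0 FPKM in COLO858 and 158 and 97.9 in MMACSF (difference -6.69). BCL2A1, a protein of the BCL2 family that protects against apoptosis and is a target of MITF, was at 0.127 and 0.117 against 139.7 and 161 FPKM (difference -7.13). In the same family PMAIP1 (NOXA), which promotes apoptosis, was higher in COLO858, at 13.02 and 19.2 against 1.96 and 1.93 (difference 2.43). These were the only 2 of 18 BCL2 family genes called, 1 in each direction, beside 3.19% (COLO858) and 3.99% (MMACSF) of all genes. Counts this small do not set the family apart from all genes, and its median was -0.007. Among other genes of the 15 largest differences, CRYAB, a small heat shock protein, was at 0.366 and 0.164 against 248 and 251 FPKM, CAPG, which caps actin filaments, at 3.24 and 3.18 against 592 and 484, and FAM167B at 0.208 and 0.107 against 254 and 212. MBP, a protein of myelin, was at 0.639 and 0.511 FPKM in COLO858 and 192 and 181 in MMACSF.

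Genes of neural crest and glia were split. Of 21 compared, 3 were called higher in COLO858 and 4 higher in MMACSF, beside 3.19% and 3.99% of all genes. Higher in MMACSF were MBP (difference -6.96), TFAP2A (above), the adhesion protein NCAM1 (1.31 and 1.39 against 18.4 and 19.7 FPKM, difference -3.17) and the calcium-binding protein S100B (113 and 113 against 857 and 782 FPKM, difference -2.95). Higher in COLO858 were CADM4, an adhesion protein of Schwann cells (54.01 and 43.2 against 0.305 and 0.479 FPKM, difference 5.09), FOXD3, a transcription factor of early neural crest (11.5 and 5.51 against 0.140 and 0.0921 FPKM, difference 2.97), and SEMA3B. S100A1, a relative of S100B, went the other way from it, with 306 and 309 FPKM in COLO858 and 10.3 and 10.3 in MMACSF (difference 4.67). CSPG4, the melanoma proteoglycan, was at 18.03 and 13.4 against 0.535 and 0.350 FPKM (difference 3.46). NGFR, the nerve growth factor receptor and a marker of neural crest-like melanoma, was low in both lines, at 2.89 and 2.82 FPKM in COLO858 and 3.86 and 2.35 in MMACSF, with overlapping libraries.

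Genes listed here for undifferentiated melanoma with little MITF did not move as a block. Whether each member of the list, such as SNAI2, marks that state was not tested. Of 29 compared, 5 were called higher in COLO858 and 4 higher in MMACSF (3.19% and 3.99% of all genes), with a median of 0.54. AXL, a receptor kinase tied to this state, was at 7.22 and 7.25 FPKM in COLO858 and 0.503 and 0.438 in MMACSF (difference 2.43). TGFBI, a matrix protein induced by TGF-beta, was at 767 and 728 against 0.659 and 0.693 FPKM (difference 8.73). In the other direction, SNAI2, a repressor of epithelial genes, was at 2.25 and 2.44 FPKM in COLO858 and 84.3 and 107 in MMACSF (difference -4.93). FN1, fibronectin, was at 37.01 and 37.97 against 823 and 826 FPKM (difference -4.52), and JUN, a subunit of the AP-1 transcription factor, at 0.956 and 0.643 against 11.4 and 9.03 (difference -2.70). Of 29 cadherins and junction proteins compared, 4 were called higher in COLO858 and 7 higher in MMACSF, beside 3.19% and 3.99% of all genes. The median of these 29 was 0.64. CDH2 (N-cadherin) was higher in COLO858, at 73.03 and 86.9 against 9.84 and 12.003 FPKM. CDH1 (E-cadherin) was higher in MMACSF, at 0.626 and 0.662 against 20.8 and 26.98 FPKM. So was CDH3 (P-cadherin), at 0.0819 and 0.0789 against 55.3 and 48.9 FPKM. Other members of the list, JUP (difference 3.22) and CLDN4 (2.44), were higher in COLO858. All genes named in this paragraph were called, so the non-overlap of their libraries held by rule.

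Matrix genes were called in both directions, and TGFBI, THBS2 and PCOLCE were among the 15 largest differences towards COLO858. Of 53 collagens, laminins and other matrix genes compared, 11 were called higher in COLO858 and 7 higher in MMACSF. Over all genes these shares were 3.19% and 3.99%. THBS2, thrombospondin 2, was at 725 and 723 FPKM in COLO858 and 0.693 and 0.659 in MMACSF (difference 8.69), as far apart as TGFBI. NID1, nidogen of basement membranes, was at 61.9 and 60.4 against 0.0454 and 0.106 FPKM (difference 5.80), and COL11A1, a fibrillar collagen, at 27.4 and 32.5 against 0.0317 and 0 (difference 4.87). PCOLCE, which speeds the maturation of collagen, was at 596 and 417 against 3.68 and 2.61 FPKM (difference 6.84). On the MMACSF side stood FN1 (above), BCAN, a proteoglycan of brain (2.70 and 2.33 against 60.9 and 45.3 FPKM, difference -4.02), LUM (lumican, difference -3.14) and COL22A1 (-3.18).

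Of 40 proteases and inhibitors, 10 were called higher in MMACSF and 4 higher in COLO858, beside 3.99% and 3.19% of all genes. The median of all 40 was 0.36, towards COLO858. CTSK, the collagen-cutting cathepsin K, was at 0.848 and 1.40 FPKM in COLO858 and 183 and 204 in MMACSF (difference -6.61), and MMP14, a membrane-bound collagenase, at 12.6 and 11.2 against 238 and 194 (difference -4.16). MMP1, the interstitial collagenase, went the other way, with 29.9 and 36.4 FPKM in COLO858 and 0.531 and 0.603 in MMACSF (difference 4.37). CST1, a cystatin, was listed at 0 in both COLO858 libraries and at 34.96 and 35.3 FPKM in MMACSF. Of 16 integrin subunits, 2 were called, both higher in COLO858, beside 3.19% of all genes. These were ITGA5, the fibronectin receptor subunit, at 10.4 and 10.4 FPKM in COLO858 and 0.0317 and 0 in MMACSF (difference 3.44), and ITGA10 (difference 2.65).

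Cancer-testis antigens, genes normally read only in germ cells and switched on in many tumors, were called almost entirely in COLO858. Of 16 compared, 11 were called higher in COLO858 and 1 higher in MMACSF, beside 3.19% and 3.99% of all genes, and the median difference was 4.58 (4.40 over the 13 genes not at 0 in a line). Only 16 of 75 genes of the list found in the files reached 1 FPKM in either line. A gene could reach it through COLO858 alone, as MAGEA4, MAGEB2, MAGEA10 and CTAG2 did. The share called and the median of the 16 therefore partly follow from that filter. MAGEA4 was at 442 and 496 FPKM in COLO858 and 0.154 and 0 in MMACSF (difference 8.71). MAGEB2 was at 80.3 and 103 against 0 and 0.122 FPKM (difference 6.39) and MAGEA10 at 62.5 and 82.2 against 0.161 and 0.140 (difference 5.92). CTAG2 was at 97.6 and 64.6 FPKM in COLO858 and listed at 0 in both MMACSF libraries. The exception was IL13RA2, a decoy receptor of interleukin 13, at 0.831 and 1.03 against 8.47 and 9.98 FPKM (difference -2.47). Members of the MAGEA family are near-identical and their reads may be split between copies, so single values are uncertain. PRAME, in the same list, differed by only 0.42.

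Output genes of the MAPK pathway, the cascade that mutant BRAF drives, were mostly higher in COLO858. Of 22 compared, 5 were called higher in COLO858 and 1 higher in MMACSF, beside 3.19% and 3.99% of all genes. A difference above 0 was found for 18 of the 22, and the median was 1.14, beside 0.03 over all genes. SPRY4, a feedback inhibitor of the pathway, was at 271 and 277 FPKM in COLO858 and 35.1 and 36.4 in MMACSF (difference 2.81), and its relative SPRY1 at 37.9 and 46.9 against 4.46 and 5.17 (difference 2.80). LIF, a cytokine of the interleukin 6 family, was at 66.5 and 56.03 against 2.39 and 1.34 FPKM (difference 4.38), and PHLDA1 at 189 and 265 against 40.7 and 53.2 (difference 2.14). MAFF, a small MAF transcription factor, went the other way, with 13.3 and 9.33 FPKM in COLO858 and 158 and 138 in MMACSF (difference -3.71). DUSP6, the phosphatase of ERK that is often read as a measure of the pathway, was at 109.7 and 124 FPKM in COLO858 and 40.4 and 40.9 in MMACSF, a difference of 1.40 that was not large (DUSP6 was added after its values were seen).

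Receptor tyrosine kinases upstream of that pathway differed in which members were expressed. Of 22 compared, 5 were called higher in COLO858 and 1 higher in MMACSF, beside 3.19% and 3.99% of all genes. Of the 53 listed, 31 did not reach 1 FPKM in either line. Beside AXL, COLO858 had more FLT1, a VEGF receptor (13.8 and 18.1 against 0.488 and 1.02 FPKM, difference 3.21), FGFR4 (15.6 and 12.8 against 0.933 and 1.004 FPKM, difference 2.87) and EPHB3 (difference 2.55). MMACSF had more MET, the receptor of hepatocyte growth factor (2.16 and 2.59 against 14.7 and 20.96 FPKM, difference -2.55). EGFR was near the minimum in both lines, at 1.17 and 1.40 FPKM in COLO858 and 1.27 and 1.83 in MMACSF (difference -0.21, not large). Secreted factors higher in COLO858 were EDN3, endothelin 3, a growth factor of melanocyte precursors (138 and 139 against 0.0536 and 0.0391 FPKM, difference 7.01), MDK, midkine (385 and 254 against 0.656 and 0.527 FPKM, difference 7.55), IGFBP5, which binds insulin-like growth factors (556 and 551 against 4.02 and 4.08 FPKM, difference 6.69), and TGFB1 (53.9 and 33.1 against 1.57 and 1.07 FPKM, difference 4.15). CXCL1, a chemokine of neutrophils, was higher in MMACSF (0.108 and 0 against 32.6 and 36.1 FPKM, difference -5.11), as was IL16 (difference -5.43).

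The very top of the COLO858 side held genes of diverse roles. PLN, phospholamban, which restrains the calcium pump of muscle, was at 445 and 703 FPKM in COLO858 and 0.129 and 0.0568 in MMACSF, the largest difference towards COLO858 (8.95). FSCN1, fascin, which bundles actin, was at 525 and 309 against 0.232 and 0.166 FPKM (difference 8.34), and NEFL, a neurofilament chain, at 108 and 128 against 0.0365 and 0.101 (difference 6.74). H1F0, a linker histone of quiescent and differentiated cells, was at 74.2 and 73.2 against 0.128 and 0 FPKM (difference 6.08). CRIP2, a LIM domain protein, and MGST1, a membrane-bound glutathione transferase, were listed at 0 in both MMACSF libraries and stood at 218 and 131 and 70.8 and 93.3 FPKM in COLO858. FSCN1, MDK, CRIP2 and PCOLCE were higher in replicate 1 than in replicate 2 of COLO858 by more than most genes, and the lines stayed far apart in both.

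**Figure D3:**
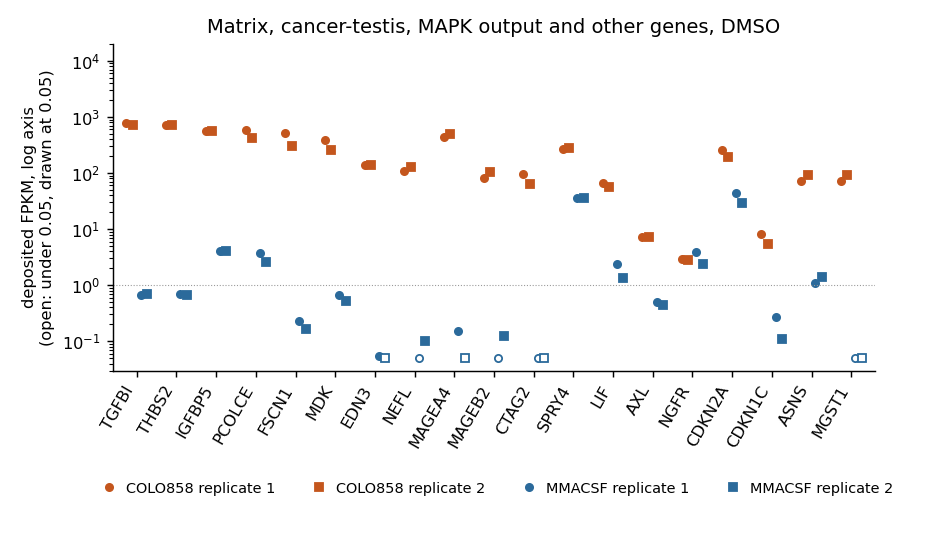
Deposited FPKM (log axis) of 19 genes in the 4 DMSO libraries, with COLO858 in orange and MMACSF in blue, replicate 1 as circles and replicate 2 as squares. Open symbols are values under 0.05 FPKM, drawn at 0.05. Matrix and cancer-testis genes are between 64.6 and 767 FPKM in COLO858 and under 5 FPKM in MMACSF, whereas NGFR overlaps between the lines.

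Genes of proliferation showed no large difference. None of 43 S phase genes and none of 54 G2/M genes compared was called, and their medians were 0.60 and 0.55, towards COLO858. MKI67, which marks cycling cells, was at 15.9 and 19.8 FPKM in COLO858 and 10.03 and 11.002 in MMACSF (difference 0.61). Among 33 cell cycle inhibitors and tumor suppressors, 4 were called higher in COLO858, beside 3.19% of all genes. CDKN2A, which encodes the inhibitor p16 and ARF, was at 261 and 190.0 FPKM in COLO858 and 43.7 and 28.6 in MMACSF (difference 2.52), and its neighbor CDKN2B at 10.2 and 13.5 against 1.77 and 1.95 (difference 2.08). CDKN1C was at 8.26 and 5.51 against 0.275 and 0.110 FPKM (difference 2.65) and CDKN1B, p27, at 55.5 and 66.2 against 13.2 and 13.6 (difference 2.002). MDM2, the ligase that degrades p53, was the single gene of the list called higher in MMACSF, at 11.03 and 16.8 against 98.9 and 132 FPKM (difference -3.08). None of 28 housekeeping genes (median 0.17) and none of 28 cholesterol synthesis genes (median -0.39) was called.

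Metabolic genes differed singly. ASNS, asparagine synthetase, was at 72.97 and 91.9 FPKM in COLO858 and 1.09 and 1.38 in MMACSF (difference 5.14). It was among 3 of 28 genes of the ATF4 amino acid response called higher in COLO858, and 2 were called higher in MMACSF. Over all genes these shares were 3.19% and 3.99%. DDIT3, the stress factor CHOP, was among those higher in MMACSF (14.6 and 16.4 against 123 and 101 FPKM, difference -2.87). Of 36 genes of mitochondrial biogenesis and glycolysis, 3 were called higher in COLO858 and 2 higher in MMACSF (all genes: 3.19% and 3.99%). ALDOC, a brain form of the glycolytic enzyme aldolase, was at 73.04 and 72.2 against 0.456 and 0.296 FPKM (difference 5.68). SLC16A3, a lactate exporter, was at 29.8 and 18.7 against 0.103 and 0.331 (difference 4.29). EPAS1 and PFKM went the other way (differences -3.36 and -2.25). Of drug transport and detoxification genes, 3 of 34 were called higher in COLO858 and 5 higher in MMACSF (all genes: 3.19% and 3.99%). ALDH1A1, an aldehyde dehydrogenase, was at 1.31 and 2.19 FPKM in COLO858 and 68.5 and 80.5 in MMACSF (difference -4.88), and NQO1, a quinone reductase, at 70.3 and 90.5 against 379.5 and 479 (difference -2.50).

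Of 20 genes named in the study's text, 18 were compared, and 4 differed largely without drug. AXL, EGFR and PDGFRB were named there from earlier work on melanoma with low MITF. For its own NGFR-high state the study reported no rise of receptor kinase RNA. These were AXL, higher in COLO858, and S100B, JUN and NCAM1, higher in MMACSF (values above). The study named some of these genes from libraries of these lines, so the list is not independent of them. The other 14 lay between -1.71 (MITF) and 0.80 (THBS1). L1CAM, an adhesion protein of neurons, was at 30.995 and 24.8 FPKM in COLO858 and 30.5 and 24.1 in MMACSF, and LAMA1, a laminin chain, at 37.95 and 36.9 against 37.1 and 35.2. LAMC1 differed by -0.20, FYN by -0.51, PTK2 by -0.32, ITGB1 by -0.996, SRC by -1.16, MAP2 by -1.04 and NOV (CCN3) by -1.39. PDGFRB (1.02 and 0.860 FPKM in COLO858, 0.0247 and 0 in MMACSF) and CNTN6 (0.518 and 0.676 against 0.0311 and 0) were under the minimum.

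Large differences came partly in neighbors on the genome, and more so on the MMACSF side. Coordinates are those of the genome build GRCh37 (hg19), to which 11875 of the 12442 symbols were matched. Runs of at least 3 adjacent compared genes called in the same direction numbered 17, of which 15 were higher in MMACSF. The run with MLANA (chr9:5890889-5910606, plus strand) lay in a stretch of chromosome 9 where other genes were also at or near 0 in COLO858. Between RCL1 and UHRF2, over 1527 kb, the files held 15 symbols besides small RNA genes. Of these, 8 were above 1 FPKM in both DMSO libraries of MMACSF, and 5 of the 8 (C9orf46, CD274, KIAA1432, ERMP1 and RANBP6) were listed at 0 in all 6 COLO858 libraries, with and without drug. The other 3 were JAK2, KIAA2026 and MLANA. JAK2 (chr9:4984390-5129948, plus strand), the kinase of cytokine receptors, was at 0 and 0 FPKM in the DMSO libraries of COLO858 and 4.72 and 6.59 in MMACSF. CD274, which encodes the immune checkpoint ligand PD-L1, was listed at 0 in COLO858 and at 1.01 and 1.48 FPKM in MMACSF. KIAA2026 was at 0.0126 and 0.0115 FPKM in COLO858 and 4.10 and 5.27 in MMACSF. The flanking genes were expressed in both lines, RCL1 at 7.24 and 9.39 FPKM and UHRF2 at 5.44 and 7.16 FPKM in COLO858. The genes of this stretch other than MLANA were named after their values were seen.

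Other runs joined genes of different roles. On chromosome 12, CDK4, the kinase that p16 inhibits (120.3 and 119.8 FPKM in COLO858 and 499.8 and 483 in MMACSF, difference -2.12), formed a run with OS9 and TSPAN31, and MDM2 with SLC35E3 and CPM. On chromosome 3, 5 adjacent genes from C3orf64 to FRMD4B, next to MITF, were called higher in MMACSF. OAS1, OAS3, OAS2 and DTX1 formed a run on chromosome 12, and CASP4, CASP1 and CARD16, genes of inflammatory caspases, one on chromosome 11. The longer of the 2 runs higher in COLO858 held MAGEA6, MAGEA12, CSAG1 and MAGEA3 on chromosome X. The genes of these runs outside the gene lists were named after their values were seen.

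Windows of 10 Mb showed the same unevenness over all their genes, called or not. Of 221 windows with at least 20 compared genes, 48 had a median difference of at least 0.5 in size. The lowest 5 were at 30 to 40 Mb of chromosome 3 (median -1.76, 39 genes), 0 to 10 Mb of chromosome 9 (-1.57, 25 genes) and 100 to 110, 80 to 90 and 110 to 120 Mb of chromosome 11 (-1.30, -1.19 and -1.14). Over 70 to 120 Mb of chromosome 11, 179 of 189 genes were lower in COLO858, with a median of -1.13. TYR, CRYAB and NCAM1 lie in that stretch. PMEL, STAT2 and CDK4 lie at 50 to 60 Mb of chromosome 12, where 114 of 135 genes were lower in COLO858 (median -0.86). The highest 5 windows were at 0 to 10 Mb (1.04, 56 genes) and 20 to 30 Mb (1.03, 23 genes) of chromosome 20, 130 to 140 Mb of chromosome 7 (1.03, 36 genes), 100 to 110 Mb of chromosome 14 (0.95, 49 genes) and 150 to 160 Mb of chromosome X (0.92, 58 genes), which holds the MAGEA genes and CTAG2. All 48 windows had the same direction at 24 h and at 48 h in vemurafenib. Over all 221 windows the DMSO medians had a correlation of 0.96 with those at 24 h and 0.95 with those at 48 h. The largest median difference between the replicates of a line in any of the 221 windows was 0.57. Why neighbors differed together was not tested.

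**Figure D4:**
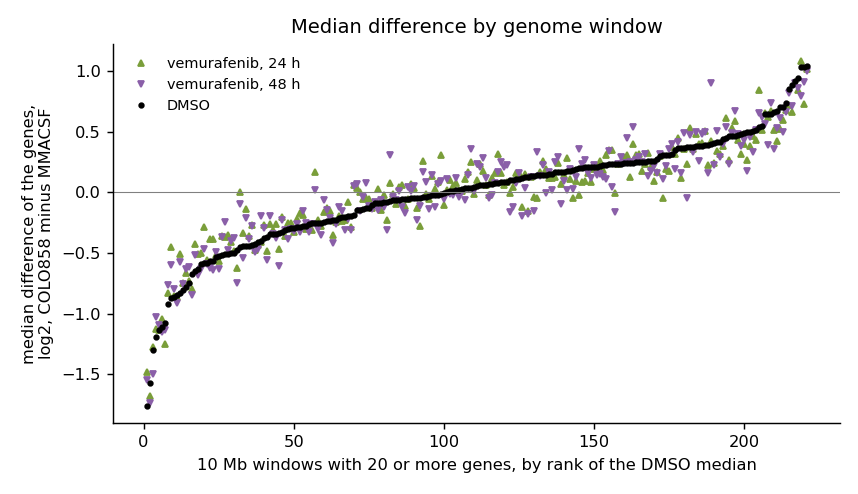
Median difference of the genes in each of 221 windows of 10 Mb (log2, COLO858 minus MMACSF), ranked by the DMSO value (black). Green and purple triangles are the same windows after 24 h and 48 h in vemurafenib. The DMSO medians run from -1.76 to 1.04, and at both ends the 2 drug values lie near the DMSO value.

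The differences were then looked up in the vemurafenib libraries, which share no sample with the DMSO comparison but come from the same lines and tables. At 24 h, 2.49% of the 12442 genes were called higher in COLO858 and 4.03% higher in MMACSF, and at 48 h the shares were 3.99% and 4.1%. Of the 397 genes higher in COLO858 in DMSO, 392 had the same direction at 24 h and 389 at 48 h, and 211 (53.1%) and 208 (52.4%) were large again. Of the 496 higher in MMACSF, 492 and 483 had the same direction, and 357 (72.0%) and 343 (69.2%) were large again. Over all 12442 genes the DMSO difference had a correlation of 0.87 with that at 24 h and 0.80 with that at 48 h. The median difference of the pigment list went from -4.36 in DMSO to -3.16 at 24 h and -2.70 at 48 h. Its members did not move alike. The difference of MLANA was -9.57 in DMSO, -10.36 at 24 h and -10.36 at 48 h, and that of TYR was -7.03, -7.26 and -8.23. PMEL went from -7.02 to -5.55 and -4.58, TRPM1 from -8.07 to -5.17 and -5.73, and DCT from -1.70 to 0.40 and 0.15.

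Some differences were much smaller with drug. EDN3 differed by 7.01 in DMSO, 1.33 at 24 h and 1.06 at 48 h. After 48 h the COLO858 libraries stood at 1.32 and 1.14 FPKM of EDN3 and the MMACSF libraries at 0.0475 and 0.0544. CDKN2A differed by 2.52, 0.36 and 0.60. CXCL1 differed by -5.11, -1.57 and -1.37. CRYAB held at -7.76 at 24 h and was at -2.92 at 48 h. In contrast, the difference of COL11A1 was 4.87, 6.69 and 8.04, and that of NGFR, close to 0 in DMSO, was 4.67 at 48 h.

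**Figure D5:**
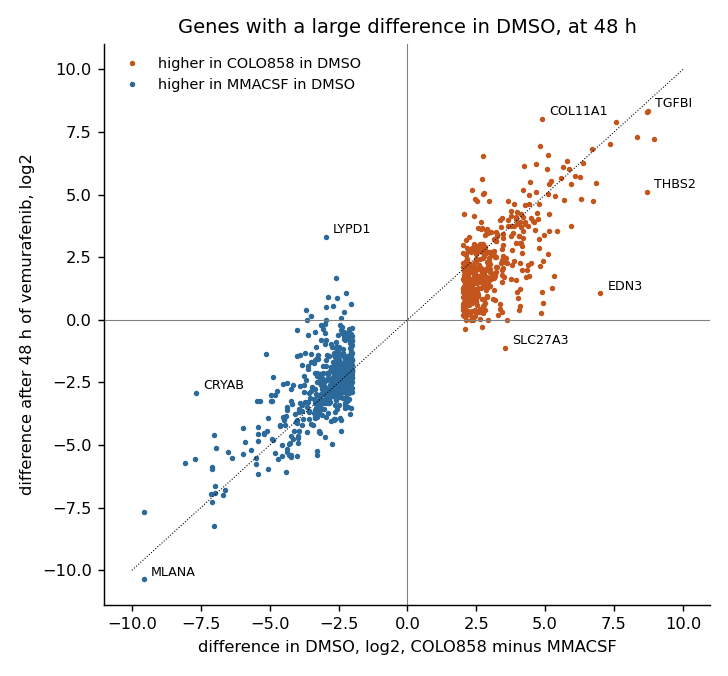
Difference between the lines (log2, COLO858 minus MMACSF) of the 893 genes with a large difference in DMSO (horizontal) and after 48 h in vemurafenib (vertical). Orange points were higher in COLO858 in DMSO and blue points higher in MMACSF, and the dotted line marks equal values. Most points lie in the 2 quadrants of equal direction, with LYPD1 and SLC27A3 among those that crossed 0.

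At the limit of a large difference the members formed no separate group. Just inside it were HTATIP2 (-2.002), CDKN1B, PIK3R3, PAQR5 (2.004) and PAN2 (-2.005), and just outside it EPHX1 (-1.99), PPIL3, PGM1, PELI1 and C6orf226 (-1.9997).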

How the data were processed

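PolyA-selected, stranded RNA libraries with spike-in RNA were sequenced by the authors as single reads of 50 bases, mapped to hg19 with TopHat and quantified with Cuffdiff on Galaxy. Versions, gene annotation and library scaling were not given in the sources used here. The deposited values are FPKM per gene, one table per line, so read depth is unknown and no counting interval can be given. All 12 columns were matched to samples. Over the 4 DMSO libraries the FPKM of genes other than small RNA genes summed to 532025 to 597095, and 11528 to 11621 genes reached 1 FPKM.

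Genes were joined by symbol, filtered (mean of 1 FPKM or more in either line), rescaled by median ratio and compared on log2(FPKM + 1) in Python 3.11.15 with pandas 2.3.3 and numpy 2.4.6. The procedure was tested on simulated data, and other scalings, added amounts, minima and limits were tried, as was leaving out each library. No test was made between tables scaled separately, and replicates are not stated to be separate cultures beyond separate plates. Positions came from GENCODE release 44 lifted to GRCh37, and promoter sequences from RefSeq. Members and gene lists were chosen with earlier results of these data known. Genes were named by rule: those the study's text names, up to 4 per list and direction, the 15 largest differences in each direction, 5 on each side of the limit, genes above 100 FPKM in one line and under 1 FPKM in the other, and 5 windows in each direction. Some other genes are said to have been named after their values were seen. Others, such as CIITA, B2M, OCA2, MC1R and STAT2, are also outside the rule. Some genes named by the rule are not reported here.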

Additional observations from a re-analysis of the deposited data

Results flagged for a closer look

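For 16 genes the large difference between the lines in DMSO was opposite in vemurafenib, with no overlap of the rescaled libraries in either condition. No minimum size was set for the opposite difference, which was as small as -0.30 (EYA1). In deposited FPKM the EYA1 libraries overlapped at 48 h, at 3.57 and 4.85 in COLO858 and 4.37 and 5.85 in MMACSF. Small differences depend on the scaling, which moved the DMSO median over all genes to between -0.11 and 0.12. Of these, 12 were higher in MMACSF in DMSO and 4 were higher in COLO858. The change of direction itself was not tested, and the genes were picked for it after their values were seen. They turned at 48 h in 13 genes and at 24 h in 5, with 2 genes at both times.

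LYPD1, a membrane-anchored protein of the Ly6 family, had the widest turn. It was at 1.05 and 1.27 FPKM in COLO858 and 14.6 and 15.3 in MMACSF in DMSO (difference -2.96). At 48 h it was at 30.5 and 28.4 FPKM in COLO858 and 1.97 and 1.89 in MMACSF, and the difference was 2.08 at 24 h and 3.31 at 48 h. PRR4 turned at both times too, to 1.06 and 1.65, but its DMSO libraries of COLO858 were far apart (0.00120 and 5.29 FPKM).

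S100B, a marker of glial and melanocytic cells, was at 113 and 113 FPKM in COLO858 and 857 and 782 in MMACSF in DMSO. At 48 h it was at 996 and 1038 against 706 and 640.0 FPKM (difference 0.51). JUN was at 45.6 and 36.05 FPKM in COLO858 and 27.8 and 23.7 in MMACSF at 48 h (difference 0.56, beside -2.70 in DMSO). MATN2, a matrix protein, was at 128 and 145 against 66.3 and 69.7 FPKM at 48 h (difference 0.91, beside -2.89). In all 3 genes the COLO858 libraries were the lower pair in DMSO and the higher pair at 48 h.

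The remaining genes higher in MMACSF in DMSO had these differences with drug. At 48 h ANXA2, an annexin, was at 1.05, CAV1 (caveolin) at 0.86, DOCK10 at 0.31, PLAT (tissue plasminogen activator) at 0.39 and PTPRZ1, a receptor phosphatase, at 0.64. At 24 h NAV2 was at 0.72 and PIK3R3 at 0.35. Of the 4 genes higher in COLO858 in DMSO, SLC27A3 went from 3.53 to -1.12 at 48 h, EYA1 to -0.30 and MRGPRX3 to -0.38, and KIAA1199 went to -0.51 at 24 h.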

How the results depend on the processing

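The labels do not say whether libraries of the 2 lines with the same replicate number were processed together, so no pairing was used. Replicates of the same number were looked at only as values. The replicate 1 minus replicate 2 differences of the lines had a correlation of 0.74 over genes. Taken after seeing the data, replicate 1 of each line alone gave 410 and 505 large differences (higher in COLO858, then in MMACSF) and replicate 2 alone 395 and 520, beside 397 and 496. Across 4 other scalings the counts were 358 to 424 and 448 to 573, all 893 differences kept their sign, and the median over all genes lay between -0.11 (housekeeping list) and 0.12 (no rescaling). Leaving out 1 library gave 373 to 462 and 495 to 516. Adding 0.1 FPKM gave 810 and 881, since it widens the differences of low genes. List members called higher in COLO858 were then 105 beside 67, and those large again in vemurafenib (chosen after seeing the data) were 545 and 656 at 24 h and 525 and 624 at 48 h. An 8-fold limit left 159 and 188 genes (list members higher in COLO858: 32), a 2-fold limit gave 1565 and 1668, and a minimum of 10 FPKM left 241 genes higher in COLO858, each by construction. Without a minimum, 11 in place of 48 windows reached 0.5, as genes at 0 in both lines entered, and the window at 20 to 30 Mb of chromosome 20 had a median of 0 in place of 1.03. None of 134 named genes with a large difference changed direction in 1474 values under 11 alternatives. This, like the kept sign of the 893 differences, follows largely from picking genes with a difference of at least 2.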

Other observations

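Among groups not yet described, HOX genes set position along the body axis. Of 30 compared, 14 differed by 2-fold or more, whereas 73.9% of all genes differed by less than 2-fold. Called were 2 higher in COLO858 and 1 higher in MMACSF, beside 3.19% and 3.99% of all genes. The called counts are too small to set the HOX genes apart from all genes. HOXB8 was at 42.4 and 25.6 FPKM in COLO858 and 3.35 and 1.85 in MMACSF (difference 3.18), HOXA10 at 5.23 and 5.07 against 0.0612 and 0 (difference 2.53), and HOXB2 at 1.98 and 1.32 against 36.5 and 21.9 (difference -3.55). HOXB2 and HOXB8, of the same cluster, thus differed in opposite directions.

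Of 16 enzymes of gangliosides and globosides, the sugar-bearing lipids of the cell surface, 2 were called, both higher in COLO858 (all genes: 3.19%). B4GALNT1, which makes the gangliosides GM2 and GD2, was at 9.89 and 8.09 FPKM in COLO858 and 0.381 and 0.398 in MMACSF (difference 2.78). A4GALT, which makes the globoside Gb3, was at 6.56 and 4.85 FPKM in COLO858 and listed at 0 in both MMACSF libraries. Of 20 ion channels, TRPM1 and TRPV2, a calcium-permeable channel, were called higher in MMACSF (TRPV2 at 23.8 and 21.3 against 114 and 99.7 FPKM). TRPM8, the cold receptor, was called higher in COLO858 (10.6 and 13.9 against 1.11 and 1.46 FPKM). Over all genes 3.99% were called higher in MMACSF and 3.19% higher in COLO858.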
